A study of Mus musculus with 35 samples.

Results

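The genes described here are 43 cell cycle and DNA replication genes, chosen by name from the 38924 genes of the count table. Of these, 17 belong to the passage from G1 into S phase and to DNA replication, and 26 to G2 and mitosis. They were measured by RNA sequencing of total RNA from sorted CD8 T cells of C57BL/6 mice in 35 libraries. Cells carried CD3e and CD8 and were CD44 high and CD62L low, as effector memory cells that have met antigen are, and came from brain or spleen. PlusStim cells received PMA and ionomycin for 2 h, drugs that switch on protein kinase C and calcium signalling directly and so bypass the antigen receptor, and NoStim cells did not. The groups were PlusStim (n = 5) and NoStim (n = 5) brain cells of aged females, PlusStim (n = 4) and NoStim (n = 6) brain cells of aged males, NoStim brain cells of young males (n = 5), and PlusStim (n = 5) and NoStim (n = 5) spleen cells of aged males. The labels name no allele or transgene, give age as aged or young only, and do not say whether replicates came from separate animals. The p-values below therefore reflect only how far these samples differ among themselves, and that spread may be technical.

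A cell that leaves quiescence first licenses its replication origins and then makes the machinery that copies DNA. E2F transcription factors switch on this first wave of genes, which includes the cyclin E genes, the loading factors Cdc6 and Cdt1, the minichromosome maintenance (Mcm) helicase subunits and the sliding clamp Pcna. A later wave, read by the MuvB core with B-Myb and Foxm1 from promoters that carry a cell cycle homology region (CHR) and CCAAT boxes, supplies the mitotic kinases, kinesins and centromere proteins. Resident memory T cells in tissue divide rarely and activated CD8 T cells divide fast after a lag.

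Libraries held 1.16 to 24.97 M counts, and the share of members seen differed sharply between groups. At least 1 count was found for 13 to 16 of the 43 members in PlusStim brain libraries of aged females and for 5 to 15 in those of aged males. The range was 22 to 43 in NoStim brain libraries of aged females and 33 to 38 in those of aged males and of young males. In spleen it was 37 to 43 in PlusStim libraries and 42 to 43 in NoStim libraries. Mitochondrial genes took 42.1 to 69.7% of counts in PlusStim female brain and 38.5 to 67.5% in PlusStim male brain, against 8.28 to 20.8% in the other groups. T cell genes were present in every group, though the summed level of 7 T cell and CD8 markers was 184 to 450 CPM in PlusStim male brain. CPM here is the usual depth-normalized count, with library totals scaled by the trimmed mean of M values (TMM). The same sum was 703 to 2327 CPM in PlusStim female brain and 1051 CPM or more in every library of the other groups. In PlusStim male brain replicates 20, 21 and 22 the sex-linked genes Xist and Ddx3y had 0 counts, and so did Xist in PlusStim female brain replicate 27, so sex could not be checked there. Xist was also counted in some male brain libraries, up to 28.7 CPM in NoStim aged replicate 8, beside 177 CPM of Ddx3y. It was at most 1.19 CPM in spleen. Ddx3y was only 1.64 CPM in young male replicate 3. These are bulk libraries, in which fewer dividing cells and less RNA of a gene per cell cannot be told apart.

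Promoter sequences of the members were searched for the motifs of both waves. RefSeq promoters on GRCm38.p6 were at hand for 34 of the 43 members. The 250 bases upstream of the start were searched on both strands for E2F motifs (TTTCCCGC, TTTGGCGC, TTTGCCGC or TTTCGCGC), for the CHR (TTTGAA) and for the CCAAT box. Hmgb2 and Pcna are shown because both were higher in stimulated spleen cells (below), and Top2a and Mcm6 were added after their values were seen, as clear examples of each class. Cdt1, also higher in stimulated spleen cells, had no match to any of these motifs and is not shown. Each line gives the 150 bases upstream of the RefSeq start, 5′ to 3′ on the strand of the gene, with motif matches in capitals.
Hmgb2, plus strand, chr8:57511693-57511842: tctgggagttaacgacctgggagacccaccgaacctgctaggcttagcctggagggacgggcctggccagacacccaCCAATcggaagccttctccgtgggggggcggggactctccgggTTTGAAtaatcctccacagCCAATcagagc
Top2a, minus strand, chr11:99024190-99024339: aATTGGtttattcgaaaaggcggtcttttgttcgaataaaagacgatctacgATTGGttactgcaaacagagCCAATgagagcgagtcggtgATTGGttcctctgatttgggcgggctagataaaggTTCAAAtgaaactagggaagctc
Pcna, minus strand, chr2:132253181-132253330: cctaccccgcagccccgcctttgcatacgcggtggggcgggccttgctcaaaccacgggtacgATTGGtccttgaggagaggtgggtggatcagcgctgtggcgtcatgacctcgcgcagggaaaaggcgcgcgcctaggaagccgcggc
Mcm6, minus strand, chr1:128359706-128359855: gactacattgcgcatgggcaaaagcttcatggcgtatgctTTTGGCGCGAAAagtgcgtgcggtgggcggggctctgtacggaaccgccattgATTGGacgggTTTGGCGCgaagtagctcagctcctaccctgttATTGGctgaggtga
In Hmgb2 the CHR lies 30 bases before the start, between CCAAT boxes at 73 and 11 bases. In Top2a a CHR on the other strand lies at 23 bases and is preceded by 4 CCAAT boxes within the window shown. Mcm6 carries 3 E2F matches, the first 2 of which overlap and form the longer run of capitals. Pcna has a single CCAAT box and no match to these E2F letters within 250 bases.

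Motif counts by role were as follows, and most replication promoters had no E2F match and most mitosis promoters no CHR. A member with more than 1 promoter was counted once, as matching if any of its promoters matched. The background counted every promoter singly. This favours the members, so their shares and those of all promoters are not strictly comparable. E2F letters stood in 4 of 14 promoters of replication members (28.6%), Cdc6, Mcm5, Mcm6 and Mcm7, and in 1 of 20 of mitosis members (5.0%), Cdk1, against 1.86% of all 32851 promoters. The CHR stood in 9 of 20 mitosis promoters (45.0%) and 2 of 14 replication promoters (14.3%), against 16% of all promoters. In 7 mitosis promoters (35%), those of Top2a, Hmgb2, Kif11, Prc1, Cdk1, Cdc20 and Ube2c, a CHR lay within 40 bases of the start, against 0 of 14 replication promoters and 2.04% of all promoters. A CCAAT box was present in 18 of 20 mitosis promoters (90%), 9 of 14 replication promoters (64.3%) and 33.8% of all promoters. All 9 mitosis promoters with a CHR also held a CCAAT box, a combination found in 5.55% of all promoters. No match of one motif overlapped a match of another, and 2 pairs of E2F matches overlapped each other. A match is a run of letters, not a site shown to be used, and its distance depends on which start is taken.

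**Figure D1:**
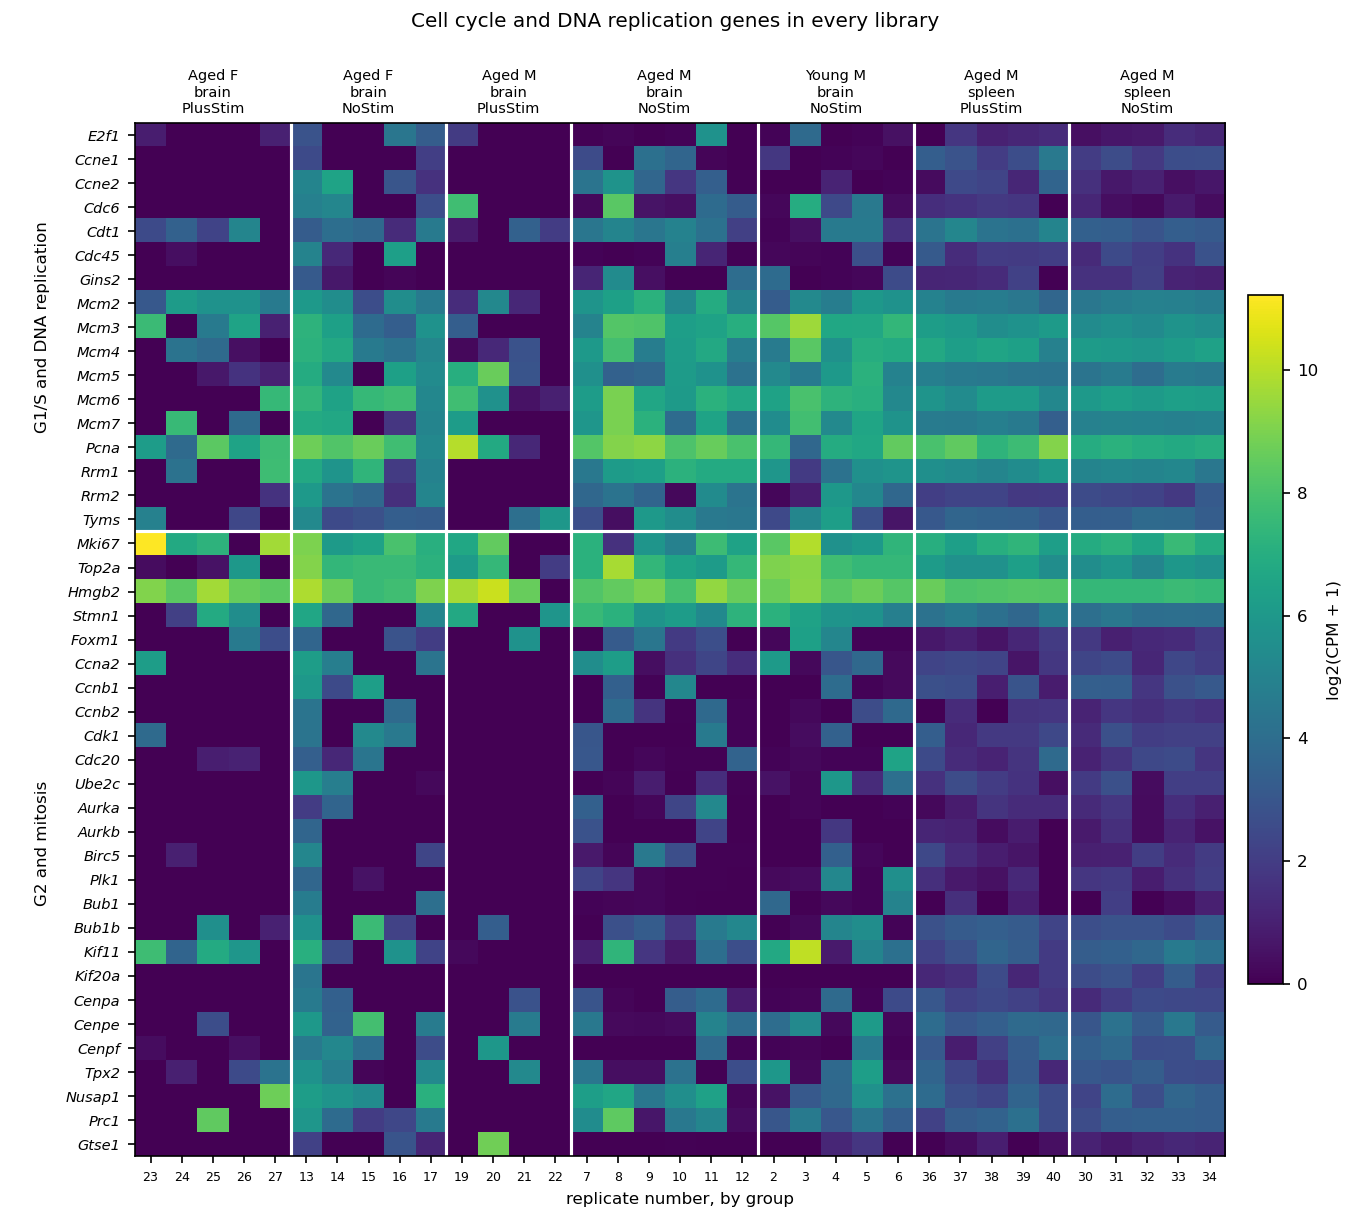
Level of each of the 43 members (rows, replication members above the white line and mitosis members below it) in each of the 35 libraries (columns, replicate numbers by group), as log2(CPM + 1) in colour. Spleen columns are even and nearly complete, while brain columns are patchy and PlusStim brain columns are mostly at 0, with Hmgb2 and Pcna as the steadiest rows.

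Per length, Pcna and Hmgb2 had the highest mean levels in every group. In the authors' TPM, which divides by gene length, Pcna had the highest mean and Hmgb2, a chromatin protein of the high mobility group, the second highest in 6 of the 7 groups, with the order turned round in PlusStim female brain. By medians Hmgb2 led Pcna also in PlusStim male brain (96.0 and 35.3 TPM), where Pcna averaged 277 ± 508 TPM, and in young male brain (102 and 82.2 TPM). NoStim spleen cells held 221 ± 20.5 TPM of Pcna and 99.6 ± 6.14 TPM of Hmgb2 (SD, n = 5). The next members there were Mcm6 with 37.0 ± 2.98 TPM and Mcm4 with 28.0 ± 3.45 TPM, both helicase subunits. In NoStim spleen the mitotic kinase genes Plk1, Aurkb and Aurka averaged 1.51, 1.34 and 1.59 TPM (2.23, 0.903 and 1.37 CPM). Mki67, the proliferation marker, averaged 18.8 ± 5.38 TPM there (135 ± 39.6 CPM).

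Stimulation was first compared in spleen cells of aged males, where most members were counted in every library. Pcna, Cdt1 and Hmgb2 rose by 1.28, 1.47 and 0.76 on the log2 scale after 2 h with PMA and ionomycin, while the other members tested, Mki67 and the mitotic kinases included, did not pass in either direction. With edgeR's quasi-likelihood test and Benjamini-Hochberg adjustment over all genes, 3 of 42 members tested were higher in PlusStim cells and 0 were lower, where 12.6% and 6.12% of all 11107 genes tested were called. The members' shares, 7.14% and 0%, were thus below the background in both directions. Bub1, a spindle checkpoint kinase gene, was too low to test. At an unadjusted p under 0.05 there were 9 members, and DESeq2 called 4 higher and 1 lower of 43 while limma voom called the same numbers as edgeR.

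Pcna, which encodes the clamp that holds DNA polymerases on the template (ENSMUSG00000027342, chromosome 2, 132249162 to 132253314, GRCm38, protein-coding), had 252, 354, 157, 206 and 569 CPM in PlusStim cells, against 121, 143, 121, 111 and 127 CPM in NoStim cells. Every PlusStim library lay above every NoStim library, and replicate 40 was the highest. The log2 fold change was 1.28 ± 0.29 (SE, adjusted p = 0.0078, edgeR), or 0.94 without replicate 40 (adjusted p = 0.0064).

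Cdt1, which loads the Mcm helicase onto origins (ENSMUSG00000006585, chromosome 8, 122568015 to 122573554), had 19.1, 34.3, 18.5, 16.7 and 32.1 CPM in PlusStim cells, against 9.78, 9.24, 6.62, 9.08 and 8.13 CPM in NoStim cells. The groups did not overlap, and the log2 fold change was 1.47 ± 0.25 (adjusted p = 0.0015). Hmgb2 (ENSMUSG00000054717, chromosome 8, 57511907 to 57515999) had 407, 272, 290, 306 and 300.1 CPM in PlusStim cells, against 177, 175, 176, 200.2 and 183 CPM in NoStim cells. These groups did not overlap either, and replicate 36 stood above the other PlusStim libraries. The log2 fold change was 0.76 ± 0.12 (adjusted p = 0.00094). Non-overlap in this direction was seen for 3 members, and for 10.9% of all genes. One member, Mcm7, did not overlap in the other direction, as did 6.1% of all genes. It averaged 21.8 ± 7.14 CPM in PlusStim and 30.1 ± 0.977 CPM in NoStim cells, with a log2 fold change of -0.50 that did not pass (adjusted p = 0.17).

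**Figure D2:**
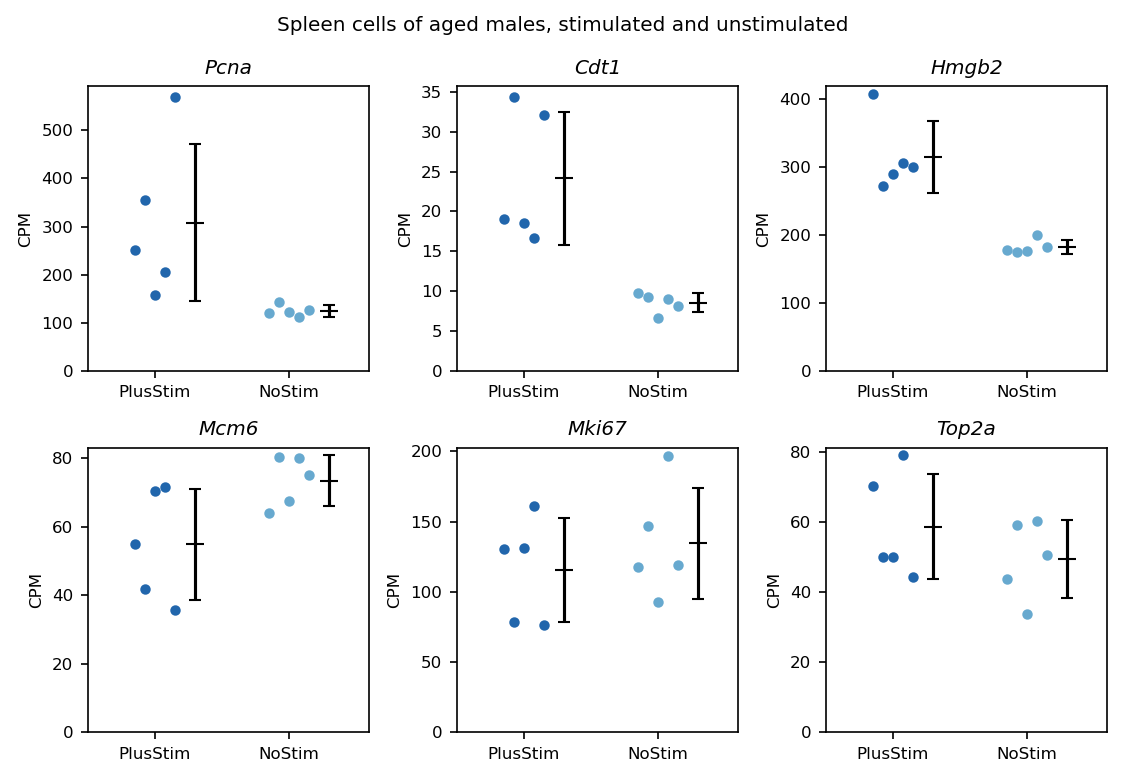
CPM of 6 members in PlusStim (left) and NoStim (right) spleen cells of aged males, each point a library (n = 5 each), with bars for mean ± SD. On this TMM scale Pcna, Cdt1 and Hmgb2 do not overlap between the groups, while Mcm6, Mki67 and Top2a do.

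Upstream of these, the cyclin E genes that drive S phase entry leaned the same way without passing. Ccne1 averaged 9.23 ± 7.66 CPM in PlusStim and 4.35 ± 1.38 CPM in NoStim cells (log2 fold change 1.07 ± 0.49, adjusted p = 0.16), and Ccne2 4.31 ± 4.37 CPM and 0.929 ± 0.616 CPM (2.196 ± 0.82, adjusted p = 0.082). Without PlusStim replicate 36, Ccne2 passed (adjusted p = 0.024). Cdc6, the partner of Cdt1 in loading, had 1.77 ± 1.04 CPM against 0.569 ± 0.456 CPM (1.57 ± 0.87, adjusted p = 0.24). The helicase itself did not follow. Under TMM the summed level of Mcm2 to Mcm7 was 260 ± 54.8 CPM in PlusStim and 265 ± 20.9 CPM in NoStim cells. On unscaled CPM the sum was lower in PlusStim cells without overlap, at 157 to 345 against 405 to 503. So it was on TPM, at 49.1 to 102 against 115 to 141. The log2 fold changes of the single subunits, under TMM, ran from -0.50 for Mcm7 to 0.39 for Mcm3. Of the ribonucleotide reductase subunits, which make deoxynucleotides, Rrm1 had 0.49 ± 0.20 (adjusted p = 0.10) and Rrm2 -0.57 ± 0.37 (adjusted p = 0.32). Leaving out PlusStim replicate 38 raised the members called to 7, with Mcm3 and Rrm1 higher and the mitotic kinesins Kif11 and Kif20a lower.

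For the G2 and mitosis genes, 7 of the 25 tested lay above 0, with a median log2 fold change of -0.26, beside 11 of 17 and 0.13 for the replication genes and -0.07 for all genes tested. Mki67 averaged 116 ± 36.8 CPM in PlusStim and 135 ± 39.6 CPM in NoStim cells (-0.26 ± 0.24, adjusted p = 0.50), and Top2a, the topoisomerase that untangles replicated chromosomes, 58.8 ± 15.1 CPM and 49.6 ± 11.1 CPM (0.21 ± 0.20, adjusted p = 0.51). Kif11, which pushes the spindle poles apart, averaged 6.56 ± 3.80 CPM and 14.2 ± 5.95 CPM (-1.16 ± 0.41, adjusted p = 0.068). Cyclin B1, the partner of Cdk1, fell short as well, with Ccnb1 at 3.84 ± 2.75 CPM and 7.04 ± 2.95 CPM (-0.91 ± 0.58, adjusted p = 0.31). Without Pcna, Cdt1 and Hmgb2 the members summed to 621 ± 90.8 CPM in PlusStim and 634 ± 90.9 CPM in NoStim cells, which is within the spread under TMM only. On unscaled CPM the same sum was 462 to 780 in PlusStim and 888 to 1323 in NoStim cells, and on TPM 146 to 213 and 257 to 348, lower in PlusStim cells with no overlap on either scale.

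**Figure D3:**
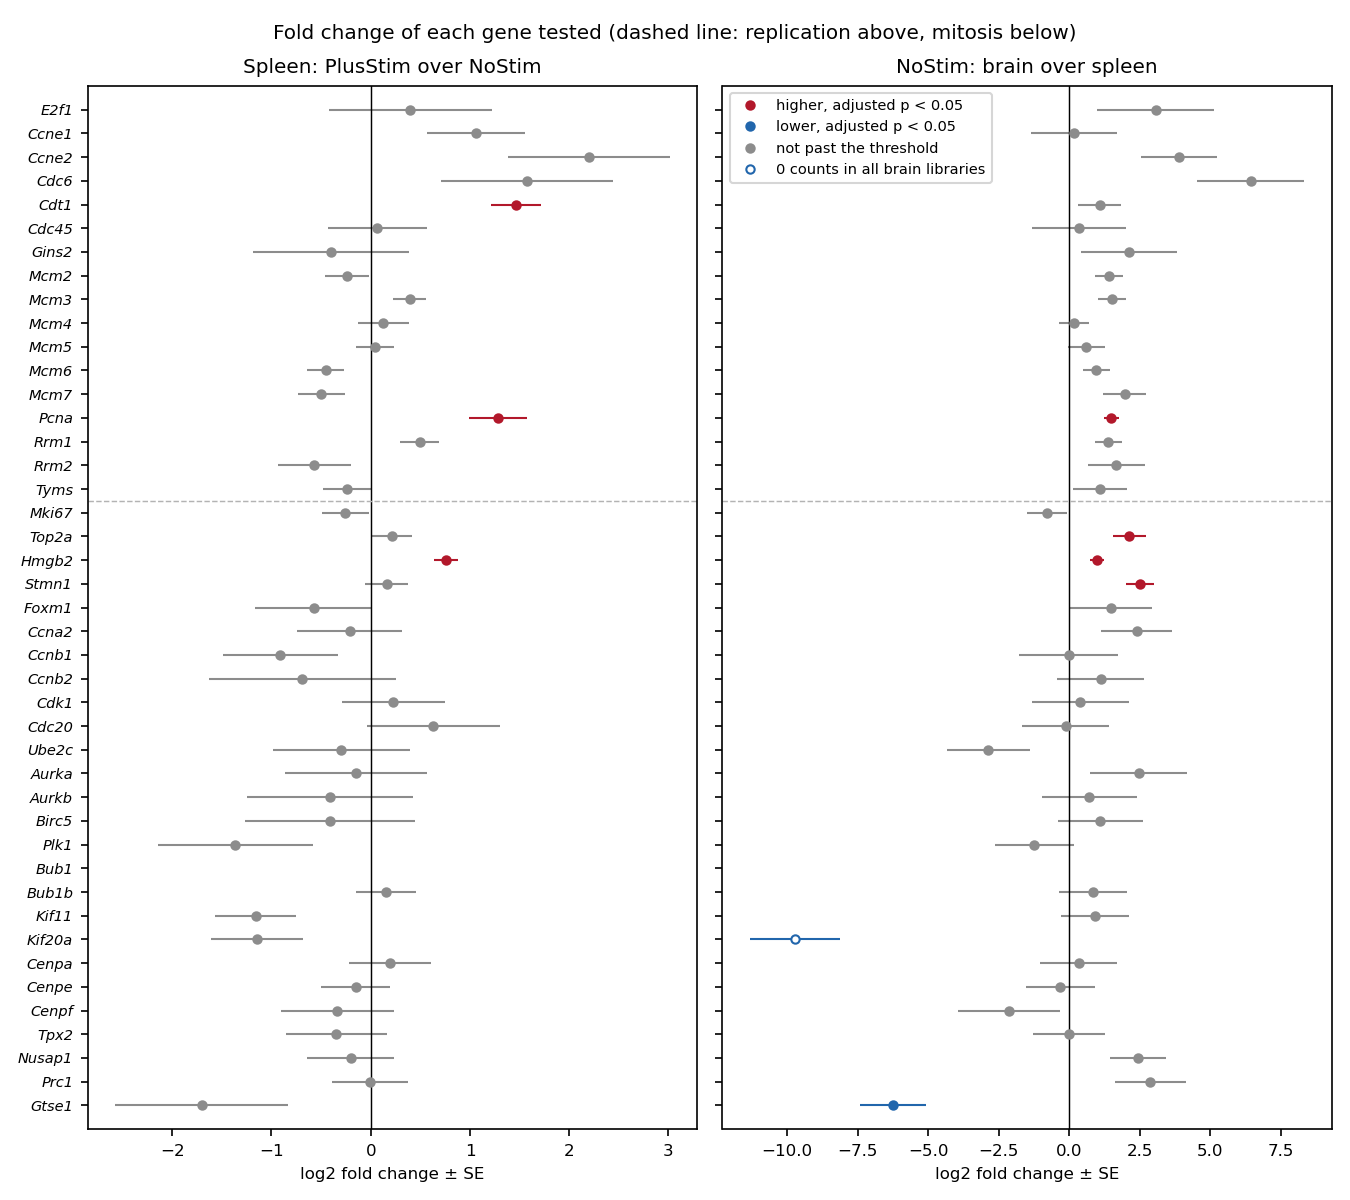
Log2 fold change ± SE of each member tested, for PlusStim over NoStim spleen cells (left) and for NoStim brain over spleen cells (right), all of aged males. On the left 3 members are called higher, Cdt1, Pcna and Hmgb2. On the right all 17 replication members lie above 0 under TMM, which did not hold for the means on TPM. Kif20a and Gtse1 are called lower on the right. The fitted value of Kif20a, with 0 counts in brain, depends on the prior count and is no measure of size.

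Several of these values depend on the scaling. TMM sets the median gene near 0 (-0.04, as the log2 ratio of group means), whereas on unscaled CPM and on the authors' TPM the median of all genes tested was -0.72 and -0.73 in PlusStim over NoStim spleen. On those scales 6 of the 42 members lay above 0, compared with 19 under TMM. Cdt1 stayed higher, at 24.7 ± 6.99 against 14.5 ± 2.29 unscaled CPM, and so did Pcna, at 307 ± 162 against 221 ± 20.5 TPM, though with overlap. Hmgb2 was nearly level, at 102 ± 13.5 against 99.6 ± 6.14 TPM. Mcm6 was lower without overlap, at 16.95 ± 6.49 against 37.0 ± 2.98 TPM, and the summed level of all members had a log2 ratio of 0.42 under TMM, -0.28 on unscaled CPM and -0.044 on TPM. Relative to the median gene, Hmgb2, Pcna and Cdt1 stood higher on all 3 scales.

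Other genes of the cycle were taken from lists of related genes, which were chosen with earlier results of these data known. Of 17 tested CDK inhibitor and antiproliferative genes, 8 were higher (47.1%) and 0 lower, beside 12.6% and 6.12% of all genes. Of 10 genes of G1 entry, 1 was higher and 1 lower (10% each). Gadd45b, a stress-induced inhibitor of cyclin B1 and Cdk1, averaged 291 ± 152 CPM in PlusStim and 2.78 ± 0.494 CPM in NoStim cells (6.67 ± 0.37, adjusted p = 7.1e-08). The antiproliferative genes Btg2 (3.21 ± 0.19, adjusted p = 1.1e-07) and Tob2 (3.60 ± 0.29, adjusted p = 2.8e-06) were higher too, and the symbol Tob2 belongs to more than 1 gene identifier. Among 10 genes of G1 entry, Myc, the growth-driving transcription factor, averaged 717 ± 442 CPM and 26.2 ± 6.39 CPM (4.75 ± 0.43, adjusted p = 1.3e-05), while Ccnd2, the cyclin D2 gene, was lower (-0.86 ± 0.15, adjusted p = 0.0016).

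Among 36 further replication genes tested, 3 were higher (8.33%) and 1 lower (2.78%), both shares below those of all genes, 12.6% and 6.12%. Dbf4, the activator of the origin-firing kinase Cdc7, rose by 1.01 ± 0.17 (adjusted p = 0.0012), the origin recognition subunits Orc1 by 2.43 ± 0.60 (adjusted p = 0.013) and Orc4 by 0.50 ± 0.15 (adjusted p = 0.035), and the maintenance methyltransferase gene Dnmt1 was lower (-0.66 ± 0.13, adjusted p = 0.0037). Among 36 further mitosis genes tested, Cks2, a CDK-binding protein gene, and Lmnb1, the lamin B1 gene, were higher (2.71 ± 0.66, adjusted p = 0.013, and 0.54 ± 0.17, adjusted p = 0.048) and none was lower, where 5.56% higher is again below the 12.6% of all genes. Of 14 E2F and MuvB genes tested only Lin54, the MuvB subunit that reads the CHR, passed (1.11 ± 0.34, adjusted p = 0.036). Of 14 genes of the anaphase-promoting complex and mitotic exit, Cdc27 was higher (0.90 ± 0.23, adjusted p = 0.015) and Anapc1 lower (-0.60 ± 0.14, adjusted p = 0.011).

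Markers of other cells moved with this comparison. B and plasma cell markers summed to 45.5 to 60.0 CPM in PlusStim and 10.6 to 34.5 CPM in NoStim spleen, with 3 of 5 tested higher. CD4 T cell markers summed to 70.9 to 141 CPM and 14.3 to 29.98 CPM, with 1 of 3 higher, Ctla4, which activated CD8 T cells express too and which averaged 95.8 ± 20.3 CPM and 6.42 ± 1.53 CPM. Microglia and macrophage markers summed to 19.5 to 49.5 CPM and 48.5 to 80.9 CPM, and T cell and CD8 markers to 1051 to 2027 CPM and 1631 to 2017 CPM. Their part in the results was not tested. In a fit of all 35 libraries, which borrows the wide spread of the brain groups, 0 members and 0.409% of all genes passed.

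Unstimulated brain cells of aged males were then compared with unstimulated spleen cells. Pcna, Stmn1, Top2a and Hmgb2 were higher in brain and the mitotic genes Kif20a and Gtse1 lower. Of 42 members tested, 4 were higher and 2 lower in brain (edgeR, adjusted p under 0.05), shares of 9.52% and 4.76% beside 3.35% and 4.02% of all 11040 genes, or 7.37% in either direction. The groups did not overlap for 5 members that were higher and 2 that were lower, and for 4.48% and 6.5% of all genes. Under TMM all 17 replication members lay above 0, with a median log2 fold change of 1.40. The median was 0.71 for the 25 mitosis members tested and 0.31 for all genes. On TPM the brain means of Mcm4, Mcm5, Ccne1, Cdc45 and Gins2 were below the spleen means. Single brain libraries varied widely and carried some values, with E2f1 at 51.95 CPM in replicate 11 and at most 0.117 CPM in the others. Only Pcna of the 17 passed.

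Pcna had 296, 569, 641, 272, 388 and 255 CPM in brain, against 121, 143, 121, 111 and 127 CPM in spleen, the same spleen libraries as above. All brain libraries lay above all spleen libraries, and the log2 fold change was 1.49 ± 0.27 (adjusted p = 0.0039). Stmn1, the gene of the microtubule destabiliser stathmin (ENSMUSG00000028832, chromosome 4, 134468320 to 134473843), ran from 38.95 through a median of 108.5 to 189 CPM in the 6 brain libraries, against 15.5 to 20.6 CPM in spleen. It too did not overlap (2.50 ± 0.49, adjusted p = 0.0049), and its call held when any 1 library was left out.

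Top2a (ENSMUSG00000020914, chromosome 11, 98992943 to 99024189) had 143, 859, 170, 90.9, 70.6 and 176 CPM in brain, against 43.8, 59.2, 33.7, 60.4 and 50.7 CPM in spleen. The groups did not overlap, but brain replicate 8 stood far above the rest. The log2 fold change was 2.13 ± 0.57 (adjusted p = 0.032), and 1.21 without replicate 8 (adjusted p = 0.030). Hmgb2 ran from 247 through a median of 383 to 668 CPM in brain, against 175 to 200.2 CPM in spleen (0.98 ± 0.25, adjusted p = 0.025). Both calls were lost when any 1 of the spleen replicates 30, 31, 32, 33 or 34 was left out, with adjusted p of 0.066 to 0.090 for Top2a and 0.059 to 0.080 for Hmgb2.

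The lower members were both mitotic. Kif20a, a kinesin of the central spindle needed for cytokinesis (ENSMUSG00000003779, chromosome 18, 34624613 to 34633277), had 0 counts in all 6 brain libraries, against 5.18, 6.34, 3.28, 8.66 and 3.07 CPM in spleen. Set against a floor of 3 counts per brain library, which covers counting error only, it was at least 29.1-fold lower in brain (adjusted p = 0.0049). It also had 0 counts in all young male and all PlusStim brain libraries, and counts in 1 brain library of 25, NoStim female replicate 13. Gtse1, a G2 and S phase gene that restrains p53 (ENSMUSG00000022385, chromosome 15, 85859745 to 85876573), had counts in 1 of 6 brain libraries, 0.0475 CPM, against 0.66 to 1.35 CPM in all 5 spleen libraries (-6.25 ± 1.18, adjusted p = 0.0049). Fewer genes of any kind were detected in these brain libraries, 8979 to 10756, than in the spleen libraries, 14750 to 15174. Brain libraries nevertheless held more counts on average, 18.4 M against 10.5 M. The floor takes no account of this, and its part in both lower calls was not tested.

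**Figure D4:**
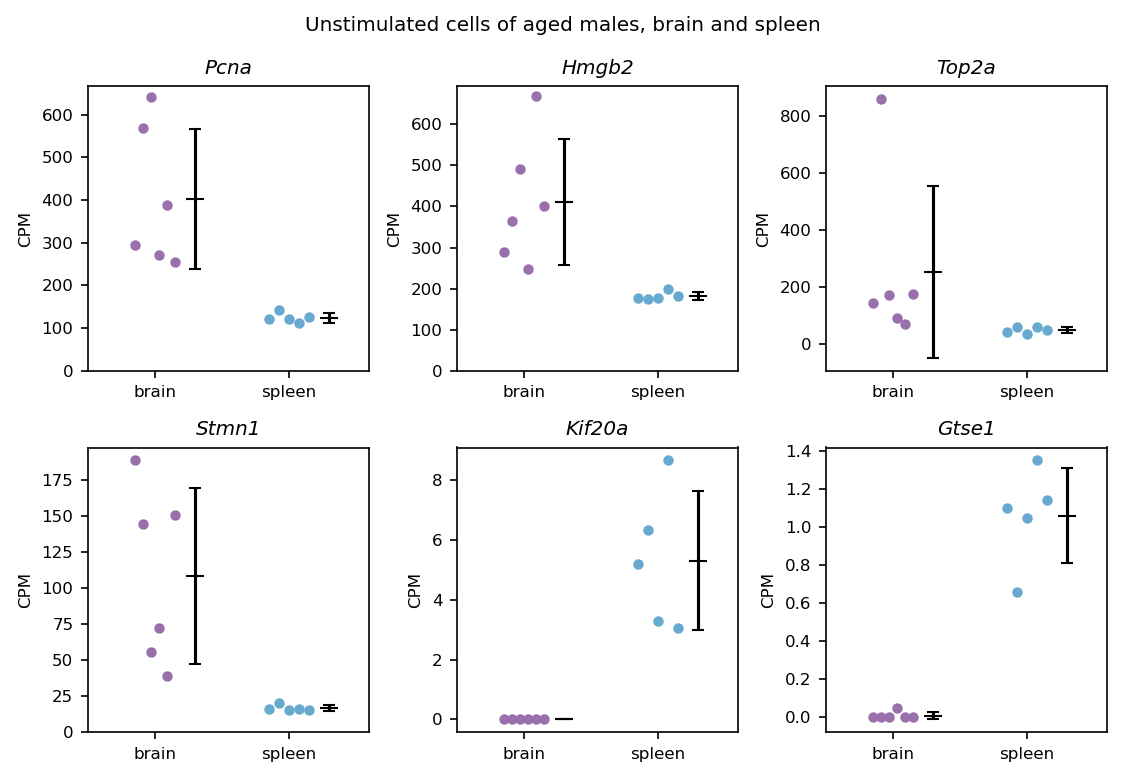
CPM of the 6 members called in NoStim brain (left, n = 6) and spleen (right, n = 5) cells of aged males, each point a library, with bars for mean ± SD. On this TMM scale Pcna, Hmgb2, Top2a and Stmn1 are higher in brain with no overlap, Top2a with 1 library at 859 CPM, and Kif20a and Gtse1 are at or near 0 in brain.

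Several members with large differences did not pass. Cdc6 averaged 58.4 ± 132 CPM in brain and 0.569 ± 0.456 CPM in spleen (6.43 ± 1.90, adjusted p = 0.054), and the mitotic crosslinker Prc1 74.2 ± 134 CPM and 8.66 ± 1.97 CPM (2.88 ± 1.27, adjusted p = 0.26). Of the helicase subunits, Mcm7 had the largest difference (1.96 ± 0.75, adjusted p = 0.17) and Mcm4 the smallest (0.16 ± 0.52, adjusted p = 0.94). Mki67 leaned the other way from Top2a, with means of 88.0 ± 76.1 CPM in brain cells and 135 ± 39.6 CPM in spleen cells (-0.79 ± 0.70, adjusted p = 0.67).

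Scaling mattered here as well. The log2 ratio of group means of the median gene was 0.52 under TMM, -0.22 on unscaled CPM and -0.18 on TPM, and 35, 27 and 27 of the 42 members lay above 0. Pcna, Top2a, Hmgb2 and Stmn1 were higher in brain and Kif20a and Gtse1 lower on all 3 scales, but fewer members kept the groups apart. On unscaled CPM Top2a and Hmgb2 overlapped, and on TPM Pcna, Top2a and Hmgb2 did. The log2 ratio of means of Hmgb2 was 1.17 under TMM, 0.43 on unscaled CPM and 0.32 on TPM. Mcm6 stood at 44.2 ± 41.3 TPM in brain and 37.0 ± 2.98 TPM in spleen. In the fit of all 35 libraries 1 member passed, lower in brain. Spleen titles are written without hyphens and these brain titles with them, so a difference of preparation, if the titles mark one, and tissue cannot be told apart.

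Related genes came from the same lists, which were chosen with earlier results of these data known. Shares higher were 20% of G1 genes and 12.5% of inhibitor genes, beside 3.35% of all genes. Shares lower were 13.3% of E2F and MuvB genes and 2.86% of further replication genes, beside 4.02% of all genes. Of further mitosis genes 2.78% were higher. Ccnd2 (1.21 ± 0.26, adjusted p = 0.0072) and Cdk6, its kinase partner (2.51 ± 0.55, adjusted p = 0.0077), were higher among 10 G1 genes, and Tob2 (2.85 ± 0.38, adjusted p = 0.00037) and Btg2 (1.66 ± 0.37, adjusted p = 0.0095) among 16 inhibitor genes tested. Of 15 E2F and MuvB genes 0 were higher and 2 lower, Lin9 (-6.78 ± 1.70, adjusted p = 0.021) and E2f6 (-5.90 ± 1.65, adjusted p = 0.039). Rfc3, a clamp loader subunit, was lower among 35 replication genes (-4.35 ± 1.05, adjusted p = 0.016), and Melk, a mitotic kinase, was higher among 36 mitosis genes (4.97 ± 1.36, adjusted p = 0.035). None of 14 anaphase-promoting complex genes passed with edgeR, nor did any have an unadjusted p under 0.05. T cell and CD8 markers summed to 2937 to 5128 CPM in brain and 1631 to 2017 CPM in spleen, with 3 of 7 higher, and choroid plexus and neural markers to 67.2 to 654 CPM and 36.5 to 45.4 CPM, led by Ttr. Markers lower in brain were 1 of 1 tested erythroid (sums 0.142 to 0.822 CPM in brain and 0.858 to 129 CPM in spleen), 1 of 3 B and plasma cell (0 to 14.3 CPM and 10.6 to 34.5 CPM) and 1 of 7 microglia and macrophage (1.94 to 448 CPM and 48.5 to 80.9 CPM). The part of all these in the higher and the lower members was not tested.

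Member levels varied far more between brain libraries than between spleen libraries. The median coefficient of variation of members with a mean of at least 1 CPM was 121% in NoStim female, 124% in NoStim aged male and 133% in young male brain. It was 56.0% in PlusStim and 30.6% in NoStim spleen. All genes showed much the same pattern, with 101%, 115% and 125% in those brain groups and 37.5% and 24.4% in spleen, close to the members' values in brain. Counts in every library were found for 13 members in NoStim female, 24 in NoStim aged male and 28 in young male brain, compared with 34 in PlusStim and 42 in NoStim spleen.

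Under TMM 1 library led in each NoStim brain group. Female replicate 13 summed to 4451 CPM over the 43 members, where the next library had 1930 CPM, and it was the only brain library with counts of every member. It also had 12706 genes detected, the most of any brain library. Aged male replicate 8 summed to 4831 CPM (next 2551 CPM), and young male replicate 3 to 5397 CPM (next 2444 CPM). On TPM the leads were smaller, 2542 against 1867 TPM for female replicate 13 and 1949 against 1593 TPM for aged male replicate 8, and young replicate 3, at 849.5 TPM, came after replicate 6 with 920.6 TPM. In young replicate 3 the kinesin gene Kif11 reached 1144 CPM, against 0.772 to 108 CPM in the other 4, and Mki67 979 CPM, against 50.7 to 329 CPM. The same library had the highest sums of CD4 T cell markers (295 CPM) and of B and plasma cell markers (31.1 CPM) of its group, and also of T cell and CD8 markers (5086 CPM, next 3671 CPM). Aged male replicate 8 likewise had the highest T cell and CD8 sum of its group (5128 CPM, next 3586 CPM). The part of these markers in the result was not tested.

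**Figure D5:**
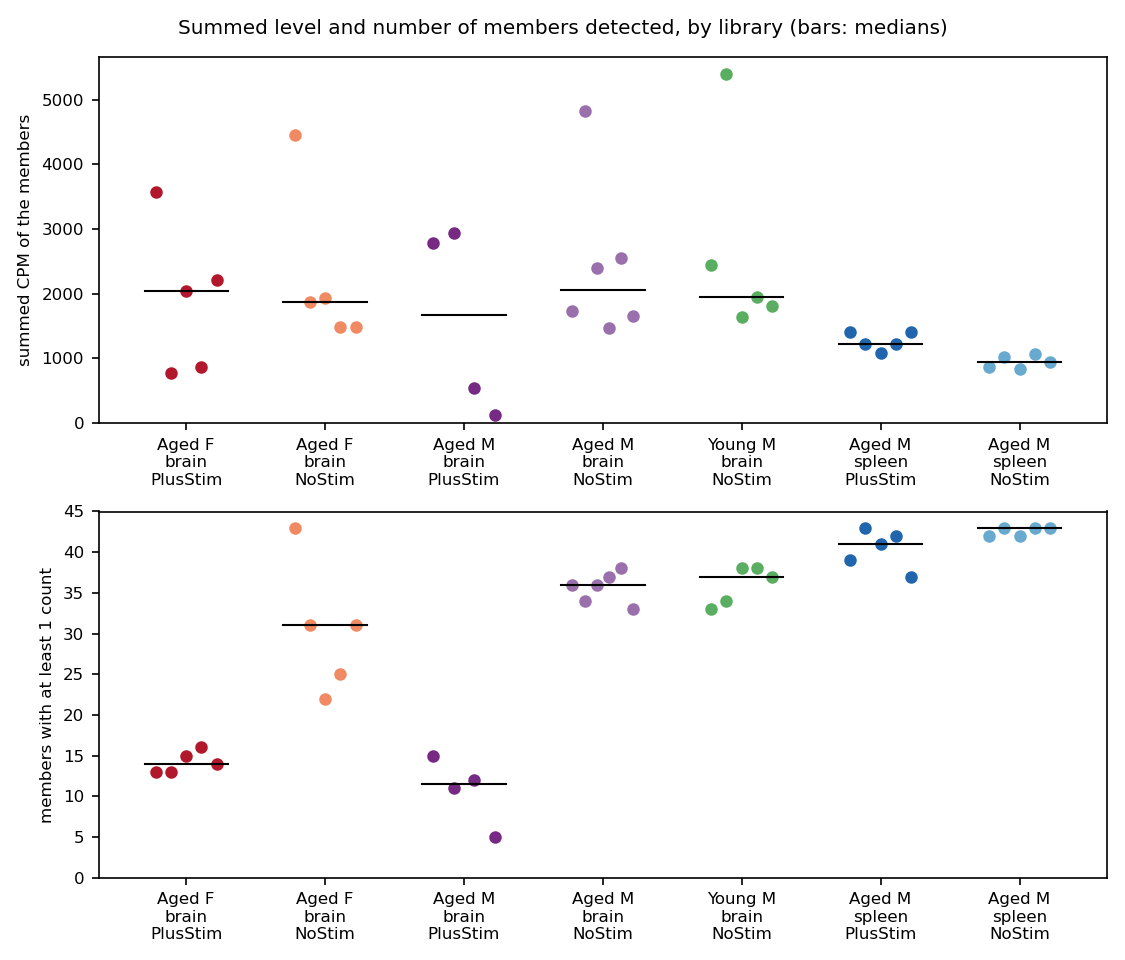
Summed CPM of the 43 members (top) and number of members with at least 1 count (bottom) in each library, by group, with bars for group medians. Female replicate 13 (4451 CPM), aged male replicate 8 (4831 CPM) and young male replicate 3 (5397 CPM) stand above their groups, and PlusStim brain libraries have 5 to 16 members detected.

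No member passed between aged and young male brain cells, both NoStim. With edgeR 0 of 29 members tested were called, beside 0% of all 8068 genes. At an unadjusted p under 0.05 there were 3 members, and DESeq2 called 4 of 36 while limma voom called 0. The summed level ran from 1467 through a median of 2064 to 4831 CPM in aged cells and from 1644 through 1954 to 5397 CPM in young cells. The log2 ratio of this level was -0.12 under TMM, 0.076 on unscaled CPM and 0.68 in TPM, where aged cells ran from 658 to 1949 TPM and young cells from 580.0 to 920.6 TPM. Pcna ran from 255 through 342 to 641 CPM in aged cells and from 12.5 through 120 to 367 CPM in young cells, with overlap (1.33 ± 0.58, adjusted p = 0.99). Ccne2, the second cyclin E gene, was counted in all 6 aged libraries and averaged 16.03 ± 19.3 CPM, against 0.255 ± 0.530 CPM in young cells (5.89 ± 2.17, adjusted p = 0.92 with edgeR and 0.0092 with DESeq2). Ube2c, the ubiquitin-conjugating enzyme of the anaphase-promoting complex, averaged 0.461 ± 0.711 CPM and 15.9 ± 26.1 CPM (-5.12 ± 2.05, adjusted p = 0.99 with edgeR and 0.041 with DESeq2).

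Aged female and aged male brain cells gave no member past the threshold in either state. Without stimulation 0 of 36 were called with edgeR, beside 0.15% of all 8691 genes, with 0 members at an unadjusted p under 0.05, 2 with DESeq2 and 0 with limma voom. Replication genes leaned lower in females, with a median of -0.47 and 4 of 16 above 0, and mitosis genes higher, with 0.56 and 16 of 20, beside -0.28 for all genes. After stimulation 10 members could be tested and 0 passed with edgeR, beside 0% of all 3159 genes, with 1 at an unadjusted p under 0.05, 2 with DESeq2 and 0 with limma voom. That member was Kif11, which had 213, 11.3, 115, 58.0 and 0 CPM in females and 0.190, 0, 0 and 0 CPM in males (9.35 ± 2.60, adjusted p = 0.36 with edgeR and 0.0099 with DESeq2). The groups overlapped at 0.

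Stimulated brain libraries held too few members to follow the programme. In PlusStim cells 14 of the 43 members had 0 counts in all 5 female libraries and 20 in all 4 male libraries. Hmgb2, Pcna and Mcm2 were counted in all 5 PlusStim female libraries, and Mcm6 alone in all 4 PlusStim male libraries. Single genes filled much of what remained. Mki67 made up 67.05% of the members' CPM in PlusStim female replicate 23, at 2391 CPM, while replicate 26 of the same group had 0 counts of it. Under TMM Hmgb2 ran from 332 through 387 to 821 CPM in PlusStim female brain and from 194 through 419 to 913 CPM in NoStim female brain. On TPM it was lower in PlusStim female brain, with means of 71.7 ± 33.1 and 217 ± 154 TPM and medians of 71.6 and 193 TPM.

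Against NoStim cells, 0 of 21 members passed in females with edgeR, beside 1.92% of all 6305 genes higher and 4.17% lower, 6.09% in all, with 4 at an unadjusted p under 0.05, 9 with DESeq2 and 5 with limma voom, all of them lower. In males 9 of 26 members were lower and 0 higher, a share of 34.6% beside 36.4% of all 7540 genes lower and 1.75% higher, near the background. They were Ccne2, Mcm3, Mcm4, Rrm1, Rrm2, Ccna2, Kif11, Nusap1 and Prc1, and 6 of them had 0 counts in all PlusStim libraries. Rrm1 had 0 counts in all 4, against 21.7 through a median of 97.6 to 148 CPM in NoStim male brain, and was at least 57.6-fold lower (adjusted p = 0.0055). The bounds of the 6 ran from 10.02 to 57.6-fold, with a median of 23.9. T cell and CD8 markers, 5 of 7 lower, summed to 184 to 450 CPM in these PlusStim libraries and 2937 to 5128 CPM in the NoStim ones, and the part of this in the result was not tested. Prc1 was too low to test once NoStim replicate 7, 8, 10 or 11 was left out.

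PlusStim brain was also set against PlusStim spleen in aged males. Here too the brain titles have hyphens and the spleen titles do not. A difference of preparation, if the titles mark one, and tissue cannot be told apart. Of 32 members tested 14 were lower in brain and 0 higher, a share of 43.8% beside 46.7% of all 9135 genes lower and 1.82% higher, again near the background. Of these, 12 had 0 counts in all 4 brain libraries, with bounds of 1.53 to 28.2-fold (median 2.62), since a floor of 3 counts was worth 1.60 CPM on average there. Mcm4 averaged 1.91 ± 2.82 CPM in brain and 78.0 ± 29.8 CPM in spleen (-5.10 ± 1.35, adjusted p = 0.010). Leaving out spleen replicate 36, 37, 38, 39 or 40 left 8, 9, 9, 11 and 9 members called, and every call lost there belonged to a member that was then too low to test. Leaving out brain replicate 19, 20 or 21 gave 17, 19 and 20 members lower, and leaving out replicate 22 gave 16 lower and 2 higher, Mcm5 and Hmgb2, beside 51.3% to 59.3% of all genes called. Markers of other cells moved too, with 5 of 5 B and plasma cell markers and 3 of 3 CD4 T cell markers lower in brain, both lists at 0 CPM in all 4 brain libraries. The 1 microglia and macrophage marker tested was lower (sums 0 to 0.19 CPM in brain and 19.5 to 49.5 CPM in spleen), as was 1 of 7 T cell and CD8 markers (184 to 450.3 CPM and 1051 to 2027 CPM). Of 2 choroid plexus and neural markers tested, 1 was higher in brain (92.1 to 1239 CPM and 46.7 to 71.2 CPM). Their part in the result was not tested.

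The response of male brain minus that of male spleen was tested as an interaction. Of 43 members 16 were lower, beside 35.7% of all 12117 genes, and 1 was higher, beside 2.1%. The 16 held 9 of the 17 replication members, such as Rrm1 (-13.71 ± 1.52, adjusted p = 2.7e-06) and Mcm4 (-5.64 ± 1.27, adjusted p = 0.0016), and 7 of the 26 mitosis members, such as Nusap1, a spindle-assembly gene (-12.27 ± 2.32, adjusted p = 0.00046). Rrm1 and Nusap1 had 0 counts in every PlusStim male brain library, so their fitted values depend on the prior count and are no measure of size. Of 7 T cell and CD8 markers 5 were lower as well, and their part in the result was not tested. Cdt1, called higher on its own in spleen, was among the lower ones (-4.02 ± 1.30, adjusted p = 0.019). The calls of Cdc45, Gins2, Cdk1 and Cdc20 were lost when certain single libraries of each of the 4 groups were left out, and that of Aurka without NoStim brain replicate 11 or PlusStim brain replicate 19, 20 or 21. Without PlusStim brain replicate 20 or 22 or NoStim spleen replicate 30, 31 or 34 the members called numbered 13. These comparisons share the brain and spleen libraries already described. The higher member was Gtse1 (14.24 ± 2.70, adjusted p = 0.00034), which had 446 CPM in PlusStim male replicate 20 and 0 counts in the other 3, and its call was lost without that library. The female response minus the male response gave 1 call in 38 members, also Gtse1 (-20.19 ± 4.15, adjusted p = 0.014), beside 0.559% of all 10026 genes in that direction. The call was lost without PlusStim male replicate 20 (adjusted p = 1.0), and Gtse1 was too low to test without NoStim female replicate 13, 16 or 17.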

How the data were processed

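RNA was measured in 35 libraries of sorted CD8 T cells. Per the submitters' processing notes, RSEM 1.2.12, Bowtie2 2.2.0 and mm10 were used. The authors deposited 1 table of counts per gene for the series and, per library, expected counts, TPM and FPKM from RSEM, per the file headers. The table's counts lay within 0.5 of the expected counts, so they are RSEM estimates rounded to whole numbers. Levels are CPM scaled by TMM over all libraries, and the deposited TPM served for levels per length. FPKM was not used. Positions come from GENCODE M21 on GRCm38, promoters from RefSeq on GRCm38.p6.

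Groups were tested with edgeR 4.0.16 (R 4.3.3) by its robust quasi-likelihood test on the libraries of the groups compared, after filterByExpr with a minimum count of 10, with Benjamini-Hochberg adjustment over all genes and a threshold of 0.05. A member at 0 in 1 group was given a bound from a floor of 3 counts per library. Alternatives were DESeq2 1.42.0 size factors and its test, limma 3.58.1 voom with quality weights, no count filter, a fit of all 35 libraries, hyphenated titles only, each library left out, and, for levels, unscaled CPM and TPM. Per-member levels on those scales were added after the data were seen. Scripts were tested on simulated data. Replicates of every group differed beyond sampling noise (chi-square over degrees of freedom at least 13.8).

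The 43 members and all lists were chosen with earlier results of these data known. Named were the members and, from each list of other cell cycle genes, up to 3 genes per direction with the smallest adjusted p. Markers of other cells were named as lists. Figures were drawn with matplotlib 3.10.9.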

Additional observations from a re-analysis of the deposited data

Results flagged for a closer look

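A single library stood apart from its group in 19 of 85 sets of values examined. The nominal chance rate of about 1 in 20 is not comparable. A set with 1 count in a single library and 0 in the others was flagged too, and the sums contain the single members. NoStim female brain replicate 13 was high for all members (4451 CPM summed), the mitosis members (2930 CPM), Top2a (558.8 CPM) and Kif20a (19.65 CPM). NoStim aged male brain replicate 8 was high for all members (4831 CPM), Top2a (859.2 CPM) and Kif11 (162.5 CPM). Young male brain replicate 3 was high for all members (5397 CPM), the replication members (1819 CPM) and Kif11 (1144 CPM).

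In PlusStim female brain, Top2a had 62.7 CPM in replicate 26 and Rrm1 212.7 CPM in replicate 27. In PlusStim male brain, Pcna had 1001 CPM and Kif11 0.1903 CPM, which is 1 count, in replicate 19, and Gtse1 446.2 CPM in replicate 20. Gtse1 had 0.04746 CPM, again 1 count, in NoStim aged male brain replicate 10 and 0 counts in the other 5 libraries. In spleen, Hmgb2 was high at 407.4 CPM in PlusStim replicate 36, Stmn1 was high at 20.6 CPM in NoStim replicate 31, and Rrm1 was low at 20.95 CPM in NoStim replicate 34.

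The response to stimulation differed between male brain and male spleen for 17 of 43 members (edgeR interaction, log2, brain minus spleen), where 37.8% of all 12117 genes also differed, so the count is near the background. Among replication members the differences were -10.22 for Ccne1, -12.87 for Ccne2, -4.021 for Cdt1, -9.06 for Cdc45, -9.584 for Gins2, -6.248 for Mcm3, -5.643 for Mcm4, -13.71 for Rrm1 and -10.22 for Rrm2. Among mitosis members they were -10.89 for Ccna2, -9.236 for Cdk1, -8.93 for Cdc20, -9.621 for Aurka, -7.289 for Kif11, -12.27 for Nusap1, -12.91 for Prc1 and 14.24 for Gtse1. Of these members 12 had 0 counts in every PlusStim male brain library, and their fitted values depend on the prior count. Gtse1 also differed between the female and male brain responses (-20.19, female minus male).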

How the results depend on the processing

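The number of members called changed with the method, and the share of all genes called by the same fit is given in brackets. With DESeq2's test it was 5 for spleen stimulation (14%), 4 for age (4.08%), 2 for sex in NoStim (1.83%) and 2 in PlusStim brain (3.12%), 9 for female (13.5%) and 14 for male brain stimulation (35.7%), and 9 for the sex interaction (11.3%). In the fit of all 35 libraries it was 0 for spleen stimulation (0.409%), 1 for tissue in NoStim cells (4.95%), 9 for sex in PlusStim brain (19.8%), 15 for female (19.7%) and 18 for male brain stimulation (38.7%), 11 for the tissue interaction (24.9%) and 9 for the sex interaction (16.6%), each of 43 members. With limma voom it was 5 for female stimulation (22.2%), 9 for the tissue interaction (22.9%) and 0 for the sex interaction (0.439%). Without a count filter it was 2 for female stimulation (4.31%) and 6 for the sex interaction (4.14%), with hyphenated titles only 2 for female stimulation (1.54%), and with DESeq2 size factors 11 for the tissue interaction (31.1%). The cause was not tested.

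Leaving out single libraries gave 3 to 7 members for spleen stimulation, 4 to 9 for tissue in NoStim and 8 to 20 in PlusStim cells, 0 to 0 for age and for sex in either state, 0 to 2 for female and 8 to 11 for male stimulation, 13 to 17 for the tissue interaction and 0 to 5 for the sex interaction.

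The summed level (log2 ratio) was 0.42 for spleen stimulation, -0.28 unscaled and -0.044 in TPM. It was 1.36 for tissue in NoStim cells, 0.56 unscaled and 0.89 in TPM, -0.12 for age, 0.076 unscaled and 0.68 in TPM, and -0.24 for female stimulation, -1.53 unscaled and -2.50 in TPM. The sign also turned, within the spread between libraries, for sex in NoStim brain (-0.12, 0.43 unscaled, 0.29 in TPM), sex in PlusStim brain (0.25, -0.31 and -1.13) and tissue in PlusStim cells (0.33, 0.046 and -0.16). Without single libraries it ran from 0.38 to 0.47 for spleen stimulation, 1.05 to 1.47 for tissue in NoStim and -0.14 to 0.72 in PlusStim cells, -0.44 to 0.31 for age, -0.53 to 0.20 for sex in NoStim and -0.14 to 0.72 in PlusStim brain, -0.60 to 0.16 for female and -1.08 to -0.22 for male stimulation.

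Directions of single members turned in the comparisons that use PlusStim male brain. In PlusStim brain against spleen, limma voom gave -2.94 for Mcm6 and -4.69 for Pcna, while leaving out single libraries gave -8.72 (PlusStim brain replicate 20) to 1.72 for Cenpf and -8.26 (replicate 21) to 1.42 for Tpx2. In male stimulation the range was -12.50 (PlusStim replicate 19) to 0.38 for Cdc6, and in the tissue interaction -8.74 to 2.56 for Foxm1 and -9.27 to 1.30 for Tpx2, both lowest without PlusStim brain replicate 21. No paired analysis was possible because the groups compared share no replicate numbers in the labels. PlusStim male brain had the lowest totals on average, 3.41 M counts, and 3 counts there were worth 1.60 CPM on average. At 6.39 M counts its replicate 19 had 4464 genes and 15 members detected. At 6.75 M counts PlusStim spleen replicate 39 had 14441 genes and 42 members detected. The part of depth in these results was not tested.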
